A study of Mus musculus with 4 samples.

Results

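Transcript levels of 40 cell cycle genes were compared between 2 libraries labelled Hhex knockout and 2 control libraries of cultured mouse pancreatic ductal cells. The 40 genes are 16 genes of S phase, in which DNA is copied, and 24 genes of mitosis, in which the copies are divided between daughter cells. They were chosen by name, with earlier results of these data known, from the 22869 gene symbols in the deposited tables. For each of the 40 symbols the 1 transcript with the highest mean count was used. Primary ductal cells, the lining of the pancreatic ducts, came from adult C57BL/6 mice. The cells labelled knockout had the genotype Sox9CreER;HhexL/L, floxed alleles of the homeobox gene Hhex together with a Cre under the Sox9 promoter that tamoxifen switches on. The cells labelled control came from littermates with HhexL/L alone. Cells of both groups were kept with 500 nM 4-hydroxytamoxifen for 4 days in culture, which activates the Cre where it is present. Cells with the Cre and intact Hhex alleles were not among the groups, so effects of the Cre and of Hhex loss cannot be told apart.

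Cells express the S phase genes first, under E2F transcription factors that the retinoblastoma protein holds back until the cell commits to division. The mitosis genes follow later in the cycle, when the MuvB complex, with B-Myb (Mybl2) and then FOXM1, binds the cell cycle genes homology region (CHR) of their promoters. In resting cells MuvB joins p130 and E2F4 in the DREAM complex and represses both sets. Adult pancreatic duct cells rarely divide in the animal, but they proliferate in culture.

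The classes also differ in promoter sequence, as a printed example of each shows. Of the 40 genes, 33 matched a RefSeq promoter by symbol (build GRCm38.p6, 250 bases before to 50 after the start of transcription), and matches were sought on both strands. A CHR element, TTTGAA or TTCGAA, was found in 14 of 19 mitosis genes (73.7%) and 2 of 14 S phase genes (14.3%), against 21.7% of all 27025 genes in the promoter table. An E2F site, here TTTCGCGC, TTTGGCGC, TTTCCCGC or TTTGCCGC, was found in 0 of 19 mitosis genes and 6 of 14 S phase genes (42.9%), against 2.6% of all genes. The box CCAAT, which binds NF-Y, was found in 16 of 19 mitosis genes (84.2%) and 8 of 14 S phase genes (57.1%), against 41.1% of all genes. All 14 mitosis genes with a CHR element also held CCAAT. Both motifs were thus found in 14 of 19 mitosis genes (73.7%) and 2 of 14 S phase genes (14.3%), against 8.6% of all genes. No motif contains another. A match describes the letters in this window and not a bound site.

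The promoters below belong to the mitosis gene and the S phase gene with the smallest p in the comparison among those whose promoter holds the motif. That of Ccnb2 lies at chr9:70421505-70421804 on the minus strand and that of Cdt1 at chr8:122567765-122568064 on the plus strand. Capitals mark the CHR elements in Ccnb2 and the E2F site in Cdt1.
Ccnb2: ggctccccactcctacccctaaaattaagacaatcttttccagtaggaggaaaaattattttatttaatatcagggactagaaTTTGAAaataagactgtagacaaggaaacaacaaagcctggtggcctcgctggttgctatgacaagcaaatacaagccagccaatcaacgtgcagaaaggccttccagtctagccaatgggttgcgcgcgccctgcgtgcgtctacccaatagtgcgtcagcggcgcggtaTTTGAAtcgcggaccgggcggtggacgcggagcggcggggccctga
Cdt1: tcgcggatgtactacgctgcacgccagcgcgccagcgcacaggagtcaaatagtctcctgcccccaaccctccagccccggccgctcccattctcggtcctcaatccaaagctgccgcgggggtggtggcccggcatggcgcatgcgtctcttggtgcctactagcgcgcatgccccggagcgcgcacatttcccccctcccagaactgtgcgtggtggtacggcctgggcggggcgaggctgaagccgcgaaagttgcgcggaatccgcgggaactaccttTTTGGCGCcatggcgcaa
In Ccnb2 the CHR elements begin at positions -167 and 5, counted from the start of transcription as 1. Its CCAAT boxes begin at -87, -54 and -21, evenly spaced upstream of the second element. In Cdt1 the E2F site begins at position 33.

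**Figure D1:**
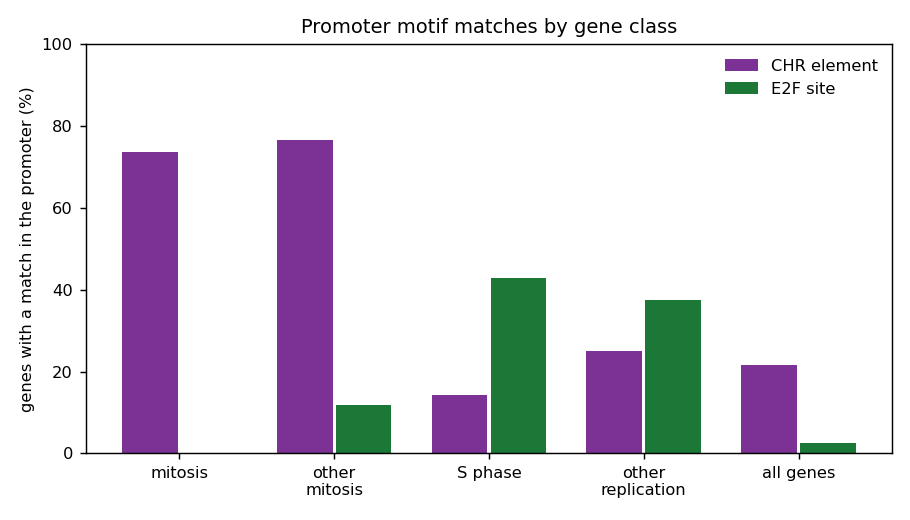
Share of genes, in percent, whose RefSeq promoter holds a CHR element or an E2F site on either strand, for the mitosis and S phase genes, for 2 further lists of such genes and for all 27025 genes. CHR matches are most frequent in both mitosis lists, at 73.7% and 76.5%, and E2F matches in both replication lists, at 42.9% and 37.5%.

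The cells had the transcripts of duct epithelium, but Hhex itself was not lower in the cells labelled knockout. The ductal markers summed to 18378 and 14683 CPM, counts scaled to library size, in the cells labelled knockout and to 14747 and 17594 CPM in the controls, mostly from the keratin genes Krt8 and Krt18. Single ductal markers differed more, such as Sox9 at 52.3 and 44.3 CPM in the cells labelled knockout and 18.0 and 21.4 CPM in the controls (edgeR adjusted p = 0.0512). Muc1, a duct mucin, stood at 1.79 and 7.35 CPM in the cells labelled knockout and at 22.7 and 19.2 CPM in the controls (edgeR adjusted p = 0.214). Hhex stood at 23.6 and 39.0 CPM in the cells labelled knockout and at 24.8 and 17.7 CPM in the controls, so the group is called "labelled knockout" throughout. Which part of Hhex is deleted is not given in the sources used here, and reads outside it would still count. Each library held between 25257778 and 39582625 counts, and the lowest count of any of the 40 genes in any library was 34. Labelled knockout 2 was the female library, with Xist at 304 CPM, against 0.750 CPM in labelled knockout 1 and 1.75 and 0.892 CPM in the controls. Markers of other cell types were low. Fibroblast and stellate markers summed to 6.83 and 9.29 CPM in the labelled knockout libraries and to 15.4 and 10.7 CPM in the controls. Endothelial markers summed to 2.25 and 5.81 CPM against 2.68 to 8.56 CPM in the controls. Acinar and endocrine markers summed to at most 4.01 CPM in any library, with the amylase gene Amy2a5 at 0 counts in all 4. The macrophage list summed to 128 and 214 CPM in the labelled knockout libraries and to 165 and 149 CPM in the controls. Most of that sum was Cd14, while the leukocyte gene Ptprc stood at 0.295 and 0.516 CPM in the labelled knockout libraries and at 0.802 and 0.405 CPM in the controls. The part of these cells in the cell cycle values was not tested. In bulk RNA more dividing cells and more of a transcript in each dividing cell cannot be told apart.

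By the median fold change of each class, mitosis transcripts stood higher in the cells labelled knockout and S phase transcripts lay close to the controls. No single gene passed the test. The 2 labelled knockout libraries differed. The S phase median lay at -0.04 (log2 CPM) from the control mean in labelled knockout 1 and at 0.23 in labelled knockout 2. The mitosis medians were 0.21 and 0.52. In labelled knockout 1, 20 of 24 mitosis genes were above the control mean, but so were 19 of 24 in control 1. All 24 mitosis genes had a positive log2 fold change, labelled knockout minus control, with a median of 0.36 and a range of 0.02 to 0.90. Foxm1 was negative with library totals, with upper-quartile factors and with 1 transcript per gene. Positive mitosis genes numbered 22 of 24 without control 2 and 20 of 24 without labelled knockout 2. Foxm1 (-0.07 and -0.41) and Plk1 (-0.04 and -0.13) were negative in both of these fits. Of the 16 S phase genes 12 were positive, with a median of 0.07 and a range of -0.24 to 0.46, and 8 of 16 with library totals, where the median was -0.005. Over all 20949 transcripts tested the median was -0.01 and 48.3% were positive. None of the 40 genes passed edgeR's quasi-likelihood test with Benjamini-Hochberg adjustment over all transcripts tested at 0.05, and the lowest adjusted p was 0.225. Over all transcripts 32 passed (0.153%), 22 higher (0.105%) and 10 lower (0.0477%). The split was 0 higher and 5 lower when libraries were scaled by their totals, and likewise by upper-quartile factors. DESeq2, edgeR's exact test and limma-trend on RPKM also called 0 of the 40. Over all transcripts DESeq2 called 303 of 28199 and the exact test 270 of 20949. Limma-trend called 163 or 164 of 22284, depending on the pseudocount. Calls were thus rare among all transcripts too. At an unadjusted p under 0.05, 8 of the 24 mitosis genes and 0 of the 16 S phase genes were higher, against 4.7% of all transcripts. At the same limit no member was lower, against 2.81% of all transcripts.

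The same contrast between the classes showed in the overlap of the groups. Both labelled knockout libraries stood above both controls for 17 of 24 mitosis genes and for 3 of 16 S phase genes, against 19.1% of all transcripts. Both stood below both controls for 0 of the 40, against 17% of all transcripts. The margin varied among the 17 mitosis genes. It was wide for Ccnb2, at 13.5 CPM in labelled knockout 1 against 8.49 CPM in control 1. It was narrow for Kif11, at 17.9 against 17.7 CPM, and for Mki67, at 20.0 against 19.5 CPM, in the same 2 libraries. With library totals in place of TMM scaling the numbers above were 11 of 24 mitosis genes and 0 of 16 S phase genes, against 14.2% of all transcripts. Whether the classes differ was not tested, since a list chosen with the results known gives no valid p.

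**Figure D2:**
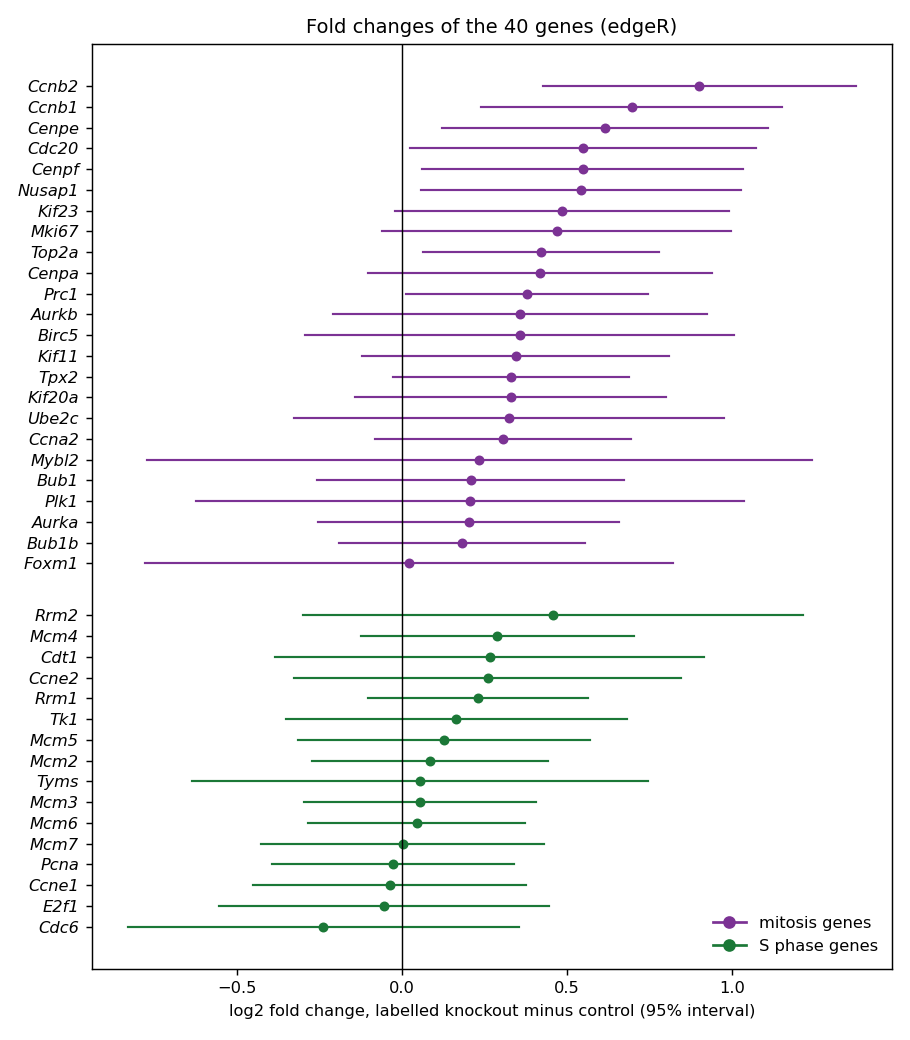
Log2 fold change of each of the 40 genes, labelled knockout minus control, with its 95% interval from edgeR, sorted within the mitosis genes (above) and the S phase genes (below). All 24 mitosis genes lie right of 0 under TMM scaling (23 with library totals), up to 0.90 for Ccnb2, whereas the S phase genes lie around a median of 0.07, and no gene passed the adjusted threshold.

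The B-type cyclins, which activate the kinase CDK1 to start mitosis, had the largest fold changes of the 40 genes. Ccnb2 (NM_007630) stood at 13.5 and 15.97 CPM in the labelled knockout libraries and at 8.49 and 7.22 CPM in the controls. The groups did not overlap, and the lower labelled knockout library was well above the higher control. Its log2 fold change was 0.90 ± 0.20 (SE), 1.87-fold with a 95% interval of 1.34 to 2.59, at an edgeR adjusted p of 0.225. Ccnb1 (NM_172301) stood at 11.7 and 12.3 CPM in the labelled knockout libraries and at 7.76 and 6.97 CPM in the controls. Replicates agreed closely in both groups, which did not overlap. Its log2 fold change was 0.70 ± 0.19 (SE), 1.62-fold (95% interval 1.18 to 2.22), at an edgeR adjusted p of 0.369. Ccna2, the cyclin that spans S phase and mitosis, had a smaller log2 fold change of 0.31 (edgeR adjusted p = 0.760). RefSeq lists pseudogene copies of Ccnb1, Ccnb2, Tyms and Pcna, and how the authors' counting treated reads that match a copy is not given in the sources used here, so these values are uncertain to that extent.

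Genes of chromosome structure and of the kinetochore, where chromosomes attach to the spindle, followed. Their 6 members had log2 fold changes of 0.36 to 0.62 with a median of 0.45. Cenpe, the kinetochore motor, stood at 17.4 and 22.4 CPM in the labelled knockout libraries and at 14.6 and 11.3 CPM in the controls. Its groups did not overlap, and the log2 fold change was 0.62 ± 0.21 (SE; edgeR adjusted p = 0.503). Cenpf, a kinetochore protein that accumulates before mitosis, stood at 17.8 and 24.3 CPM in the labelled knockout libraries and at 15.4 and 13.3 CPM in the controls. Here labelled knockout 2 was the high library and labelled knockout 1 only a little above the controls, with a log2 fold change of 0.55 ± 0.21 (SE; edgeR adjusted p = 0.577). Top2a, the topoisomerase that untangles sister chromatids, stood at 118 and 132 CPM in the labelled knockout libraries and at 100.01 and 86.8 CPM in the controls. Its groups did not overlap, and the log2 fold change was 0.42 ± 0.15 (SE; edgeR adjusted p = 0.537). Per length it was the most abundant mitosis gene, at a mean of 15.8 RPKM over the 4 libraries. The proliferation antigen gene Mki67, the survivin gene Birc5 of the chromosomal passenger complex and the centromeric histone gene Cenpa had log2 fold changes of 0.47, 0.36 and 0.42.

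Spindle and cytokinesis genes had log2 fold changes of 0.33 to 0.54 in all 6 members. Nusap1, a microtubule-binding protein of the spindle, stood at 12.1 and 13.5 CPM in the labelled knockout libraries and at 7.72 and 9.89 CPM in the controls. The groups did not overlap, and the log2 fold change was 0.54 ± 0.21 (SE; edgeR adjusted p = 0.580). The midzone protein Prc1 and the motor Kif23, which build the central spindle, had log2 fold changes of 0.38 and 0.48. The spindle motor Kif11, the cytokinesis motor Kif20a and the spindle assembly factor Tpx2 had 0.34, 0.33 and 0.33. For the anaphase-promoting complex, which ends mitosis by marking cyclins for destruction, the activator gene Cdc20 had a log2 fold change of 0.55 and its ubiquitin-conjugating enzyme gene Ube2c one of 0.32.

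The mitotic kinase and checkpoint genes and the transcription factors had lower median log2 fold changes, 0.21 and 0.13, than the class at 0.36. The kinase and checkpoint genes Aurka, Aurkb, Bub1, Bub1b and Plk1 had log2 fold changes of 0.18 to 0.36, with Aurkb highest, at the class median. Both labelled knockout libraries stood above both controls for 2 of the 5, Aurkb and Bub1b, against 19.1% of all transcripts. Plk1, a kinase of mitotic entry, stood at 3.13 and 4.74 CPM in the labelled knockout libraries and at 4.12 and 2.59 CPM in the controls. Its replicates differed more than its groups, with a log2 fold change of 0.21 ± 0.35 (SE; edgeR adjusted p = 0.942). Foxm1, which drives late cell cycle genes, stood at 2.89 and 4.90 CPM in the labelled knockout libraries and at 4.15 and 3.41 CPM in the controls. The labelled knockout libraries enclosed both controls, and the log2 fold change was 0.02 ± 0.34 (SE; edgeR adjusted p = 0.994). Mybl2, the gene of B-Myb, was the least abundant of the 40 per length, at a mean of 0.304 RPKM, with a log2 fold change of 0.23 ± 0.43 (SE).

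**Figure D3:**
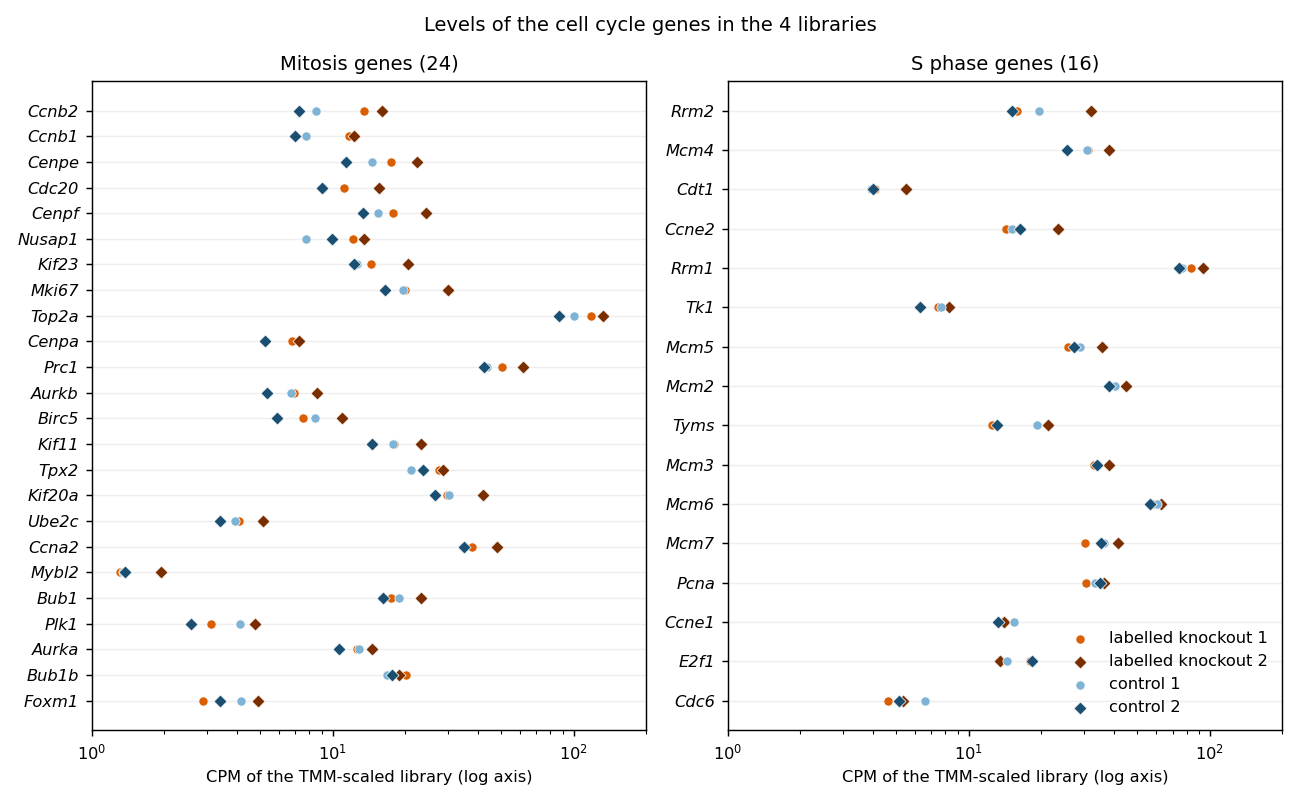
Level of each mitosis gene (left) and S phase gene (right) in the 4 libraries, as CPM of the TMM-scaled library on a log axis, with each group's libraries in one colour family. For Ccnb2 both labelled knockout libraries, at 13.5 and 15.97 CPM, stand above the controls at 8.49 and 7.22 CPM, whereas for Rrm2 labelled knockout 2, at 32.1 CPM, stands apart from the other 3 libraries.

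Origin licensing genes, which load the MCM helicase onto DNA ahead of replication, were at control levels in labelled knockout 1 and somewhat above in labelled knockout 2. Their 8 members had a median log2 fold change of 0.07. Mcm4, a helicase subunit, stood at 31.1 and 38.1 CPM in the labelled knockout libraries and at 31.0 and 25.5 CPM in the controls. Labelled knockout 1 was level with control 1, and the log2 fold change was 0.29 ± 0.18 (SE; edgeR adjusted p = 0.815). The other subunits, Mcm2, Mcm3, Mcm5, Mcm6 and Mcm7, had log2 fold changes of 0.09, 0.05, 0.13, 0.04 and 0.00. Their 95% intervals lay between -0.43 and 0.57. Cdt1, a loading factor, stood at 4.10 and 5.52 CPM in the labelled knockout libraries and at 3.93 and 4.01 CPM in the controls. The groups did not overlap but labelled knockout 1 was close to the controls, with a log2 fold change of 0.27 ± 0.28 (SE; edgeR adjusted p = 0.904). Cdc6, the other loading factor, had the lowest fold change of the 40 genes, at 4.63 and 5.35 CPM in the labelled knockout libraries and 6.56 and 5.15 CPM in the controls. Its groups overlapped, with a log2 fold change of -0.24 ± 0.25 (SE; edgeR adjusted p = 0.906).

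Among the genes of nucleotide supply, Rrm2 and Tyms varied widely between the labelled knockout libraries, and Rrm1 and Tk1 did not. Rrm2, the regulated subunit of ribonucleotide reductase, stood at 15.9 and 32.1 CPM in the labelled knockout libraries and at 19.6 and 15.1 CPM in the controls. Labelled knockout 2 was high and labelled knockout 1 lay between the controls, so that the log2 fold change was 0.46 ± 0.32 (SE; edgeR adjusted p = 0.865). Without labelled knockout 2 it was -0.15. Rrm1, the constant subunit, stood at 83.4 and 94.1 CPM in the labelled knockout libraries and at 76.3 and 74.8 CPM in the controls. Its groups did not overlap, with a log2 fold change of 0.23 ± 0.14 (SE; edgeR adjusted p = 0.816). Tyms, the thymidylate synthase gene, stood at 12.5 and 21.4 CPM in the labelled knockout libraries and at 19.2 and 13.1 CPM in the controls. The labelled knockout libraries enclosed both controls, with a log2 fold change of 0.06 ± 0.29 (SE; edgeR adjusted p = 0.983). The thymidine kinase gene Tk1 had a log2 fold change of 0.17 ± 0.22 (SE).

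Pcna and most regulators of S phase entry differed little between the groups. Pcna, the sliding clamp of the replication fork and per length the most abundant of the 40 genes at a mean of 20.3 RPKM, stood at 30.6 and 36.5 CPM in the labelled knockout libraries and at 33.5 and 34.9 CPM in the controls. Its groups overlapped, and the log2 fold change of -0.03 had a 95% interval of -0.39 to 0.34 (edgeR adjusted p = 0.983). The E-type cyclins activate CDK2 at the start of S phase. Ccne2 stood at 14.3 and 23.5 CPM in the labelled knockout libraries and at 15.2 and 16.3 CPM in the controls. As for Rrm2, labelled knockout 2 was the only high library, and the log2 fold change was 0.26 ± 0.25 (SE; edgeR adjusted p = 0.898). Ccne1 and E2f1, the gene of an activating E2F factor, had log2 fold changes of -0.04 and -0.06. Of the 40 genes 8 have several deposited transcripts, and for 7 of them the counts of the transcripts differed by at most 2.78% in any library, so that their isoforms cannot be told apart. For Birc5 they differed by up to 21.4%, and the other transcript had a log2 fold change of 0.39.

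Labelled knockout 2 was the highest library for 23 of 24 mitosis genes and 13 of 16 S phase genes, against 23.1% of all transcripts tested. Control 2 was the lowest library for 18 of 24 mitosis genes and 7 of 16 S phase genes, against 17% of all transcripts. The median difference of labelled knockout 2 from the control mean was 0.52 (log2 CPM) over the mitosis genes and 0.23 over the S phase genes. In labelled knockout 1 the medians were 0.21 and -0.04, with 20 of 24 mitosis genes and 5 of 16 S phase genes above the control mean. The count for mitosis was similar in control 1, where 19 of 24 mitosis genes (median 0.10) and 12 of 16 S phase genes (median 0.04) were above that mean. In control 2 it was 5 of 24 mitosis genes (median -0.10) and 4 of 16 S phase genes (median -0.04). Over all transcripts the medians were -0.003 in labelled knockout 1 and 0.01 in labelled knockout 2. Without labelled knockout 2, 20 of 24 mitosis genes had a positive fold change with a median of 0.18, whereas 5 of 16 S phase genes were positive with a median of -0.06. Without labelled knockout 1, 24 of 24 mitosis genes were positive with a median of 0.48, and 13 of 16 S phase genes with a median of 0.20. With a single library for the knockout group, assumed to vary as the controls do, edgeR called 2 of the 40 genes without labelled knockout 2, Ccnb1 (adjusted p = 0.0313) and Ccnb2 (adjusted p = 0.0041), while the same fit called 1911 of 21986 transcripts (8.69%). It called 12 of the 40 without labelled knockout 1, 10 mitosis genes and the S phase genes Rrm2 and Ccne2, while that fit called 1742 of 22176 transcripts (7.86%). With all libraries the calls were 0 of the 40 and 32 of all transcripts. For labelled knockout 2, sex and any other trait of that animal cannot be told apart.

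**Figure D4:**
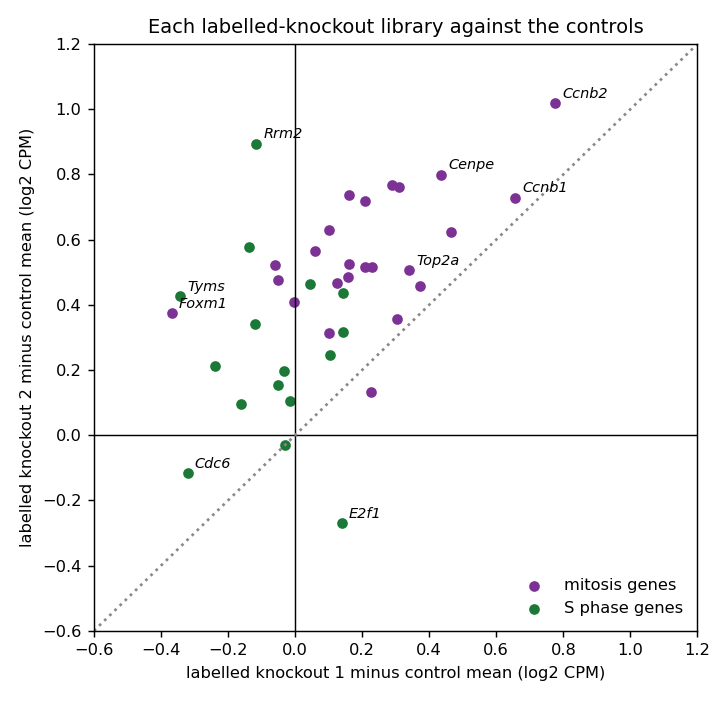
Difference of each gene from the control mean, in log2 CPM, in labelled knockout 1 (x axis) and labelled knockout 2 (y axis), with the dotted line marking equal differences. The B-type cyclins Ccnb1 and Ccnb2 are high in both libraries, while most S phase genes lie left of 0 in labelled knockout 1 and above 0 in labelled knockout 2.

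Within a library, the ratio of the classes does not depend on how libraries are scaled. The 24 mitosis genes summed to 483 and 591 CPM in the labelled knockout libraries and to 425 and 387 CPM in the controls. The 16 S phase genes summed to 421 and 515 CPM in the labelled knockout libraries and to 443 and 418 CPM in the controls, where labelled knockout 2 alone stood apart. The ratio of mitosis to S phase transcripts was 1.15 in both labelled knockout libraries, against 0.960 and 0.926 in the controls. The labelled knockout libraries, which differed in the level of both classes, thus had nearly the same ratio, and the mean ratio was 1.22 times that of the controls. Without Top2a, the most abundant mitosis gene, the ratios were 0.866 and 0.890 in the labelled knockout libraries and 0.734 and 0.718 in the controls. The labelled knockout ratios then no longer agreed as closely, with an SD of 0.0169 against 0.0115 in the controls. With 2 libraries a group, the values are given as a description.

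Further genes of the same processes, which are not among the 40, were divided in the same way in the same 4 libraries. These lists too were chosen with earlier results of these data known, so they are no independent support. Of 43 other mitosis genes 42 had positive log2 fold changes, with a median of 0.35. Both labelled knockout libraries stood above both controls for 27 of the 43, against 19.1% of all transcripts. Labelled knockout 2 was again the highest library for most, 36 of the 43, against 23.1% of all transcripts. Control 2 was the lowest for 34 of the 43, against 17% of all transcripts. None passed edgeR's adjusted threshold, while 11 of the 43 were higher at an unadjusted p under 0.05, against 4.7% of all transcripts. Ect2 and Racgap1, which position the cleavage furrow through RhoA, had the smallest p. Ect2 stood at 68.1 and 64.0 CPM in the labelled knockout libraries and at 45.7 and 42.7 CPM in the controls, a log2 fold change of 0.58 ± 0.14 (SE; edgeR adjusted p = 0.270). Racgap1 stood at 13.4 and 16.4 CPM in the labelled knockout libraries and at 9.22 and 7.91 CPM in the controls, a log2 fold change of 0.79 ± 0.20 (SE; edgeR adjusted p = 0.309). Neither gene's groups overlapped.

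Of 33 other replication genes 20 had positive log2 fold changes, with a median of 0.10, and none passed edgeR's adjusted threshold. Both labelled knockout libraries stood above both controls for 9 of the 33, against 19.1% of all transcripts, and 1 was higher at an unadjusted p under 0.05, against 4.7% of all transcripts. That gene was Cdc7, the kinase that fires licensed origins, at 20.1 and 18.4 CPM in the labelled knockout libraries and 14.0 and 14.2 CPM in the controls, a log2 fold change of 0.45 ± 0.16 (SE; edgeR adjusted p = 0.545). Pole, the leading-strand polymerase gene, had a log2 fold change of 0.31 ± 0.17 (SE; edgeR adjusted p = 0.772). The ratio of these other mitosis genes to these other replication genes was 1.63 and 1.62 in the labelled knockout libraries, against 1.35 and 1.26 in the controls.

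**Figure D5:**
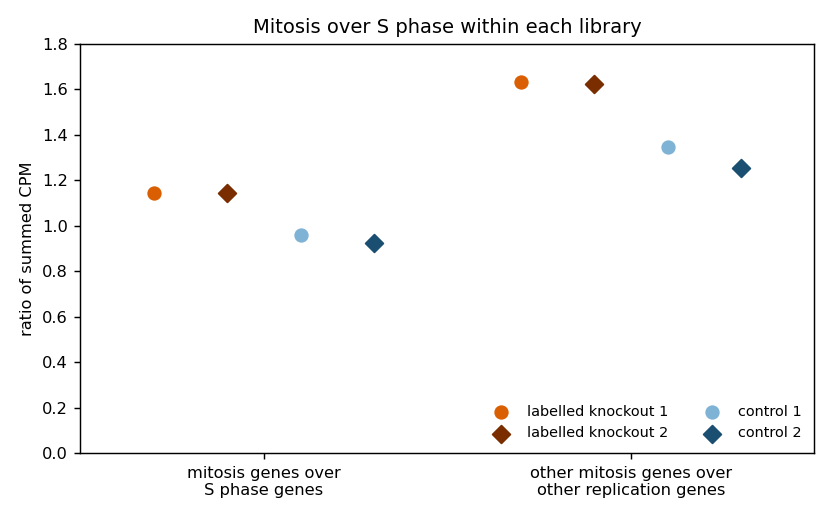
Ratio of summed CPM, mitosis over S phase genes, within each library, for the 40 genes (left) and for 2 further lists (right). The labelled knockout libraries stand at 1.15 in both cases on the left and at 1.63 and 1.62 on the right, above the controls at 0.960 and 0.926 and at 1.35 and 1.26.

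Among 17 genes of the E2F, retinoblastoma and DREAM regulators, 10 had positive log2 fold changes with a median of 0.06, and none passed edgeR's adjusted threshold, while 2 of the 17 were higher at an unadjusted p under 0.05, against 4.7% of all transcripts. Rb1, which encodes the retinoblastoma protein, stood at 27.7 and 32.2 CPM in the labelled knockout libraries and at 15.7 and 20.4 CPM in the controls. Its groups did not overlap, with a log2 fold change of 0.73 ± 0.19 (SE; edgeR adjusted p = 0.309). Tfdp2, a dimerization partner of E2F factors, stood at 67.6 and 61.7 CPM in the labelled knockout libraries and at 49.6 and 48.3 CPM in the controls. Its groups did not overlap either, with a log2 fold change of 0.40 ± 0.14 (SE; edgeR adjusted p = 0.510).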

How the data were processed

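RNA of 4 libraries, 1 per animal, was sequenced after TruSeq RNA v2 preparation, per the labels' protocols. The authors deposited raw counts and RPKM values per RefSeq transcript. Build mm9 and edgeR are named in the submitters' processing notes, and the aligner, the counting program and strand use are not given in the sources used here. Groups come from the sample titles, and the animals are the replicates.

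The counts were tested with edgeR 4.0.16 in R 4.3.3 (filterByExpr with a minimum count of 10 and a minimum total of 15, TMM factors, quasi-likelihood F test with the current rather than the legacy deviance method, Benjamini-Hochberg adjustment at 0.05). This kept 20949 of 28644 transcripts, among them all 40 members. The common biological coefficient of variation was 0.234. CPM is the count scaled to the TMM-adjusted library size, log2 CPM per library adds 0.1, and SE is the log2 fold change divided by the square root of F. RPKM, as the authors deposited it, was used for levels between genes. On counts simulated for this comparison (20949 transcripts, 100 changed at each size), the test found 26% of the 2-fold and 99% of the 4-fold changes and made 4 false calls. Every transcript was simulated with the common biological coefficient of variation, so these numbers need not hold for real transcripts, which vary unequally. The largest fold change of the 40 genes, 1.87-fold, was below both simulated sizes.

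The members and lists were chosen with earlier results of these data known. In each class the text gives in full the 6 members with the smallest p, the highest mean RPKM, the lowest fold change and the 2 largest gaps between replicates, and from each further list the 2 with the smallest p. Other members are given by fold change. Alternatives were other scaling, filters and tests (DESeq2 1.42.0, limma-trend with limma 3.58.1), 1 transcript per gene, summed counts, another threshold and each library left out. The ratio of the classes and the count of genes without overlap were chosen after seeing the data. Promoters are RefSeq sequences of GRCm38.p6, a later build than mm9, and were matched by symbol.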

Additional observations from a re-analysis of the deposited data

How the results depend on the processing

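With all libraries kept, none of the 40 genes was called under any alternative, and the lowest adjusted p lay between 0.0503 in DESeq2 and 0.389 in edgeR with library totals, each time for Ccnb2. The median log2 fold change of the mitosis genes ran from 0.28 with library totals to 0.42 with limma-trend on log2(RPKM + 0.1), and that of the S phase genes from -0.005 with library totals to 0.13 with limma-trend on log2(RPKM + 0.1). Leaving out each library in turn gave 0.18 to 0.48 for mitosis and -0.06 to 0.20 for S phase. Positive fold changes numbered 36 of 40 as reported, 31 with library totals, 39 with limma-trend on RPKM, and 25 to 37 with a library left out. Genes called with a library left out numbered 0 to 12. Over all transcripts the count called moved most. It was 5 with library totals, 5 with upper-quartile factors, 4 with a minimum count of 30, 303 with DESeq2, 270 with the edgeR exact test, 64 with the robust fit, 163 and 164 with limma-trend (pseudocounts 1 and 0.1), 2 with 1 transcript per gene, 14 with summed counts, 81 at an adjusted p of 0.10, and 0 to 1911 with a library left out. The cause was not tested. Groups did not overlap, with both labelled knockout libraries higher, for 11 of 24 mitosis genes with library totals, 12 with upper-quartile factors and 17 with relative log expression factors, and for 0, 0 and 2 of 16 S phase genes, against 14.2%, 16.3% and 18.5% of all transcripts. The mitosis to S phase ratio, labelled knockout over control, was 1.22 as reported, 1.24 from RPKM, 1.25 in the other mitosis and replication genes, and 1.19 to 1.24 with a library left out. Of 368 values of single genes under alternatives, 16 had the opposite sign, none of them past the threshold, and 17 passed the threshold, all with a labelled knockout library left out. No paired analysis was possible because the labels give no replicate numbers shared by the groups. No count of the 40 genes was below 34, and the SE was larger for low genes such as Mybl2 (0.43) than for abundant ones such as Top2a (0.15).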
